A study of Caenorhabditis elegans with 2 samples.

Results

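The 8 genes described here encode the nematode DREAM complex, the assembly of a retinoblastoma protein, an E2F factor and the MuvB proteins that represses transcription. They are lin-35, efl-1, dpl-1, lin-9, lin-37, lin-52, lin-53 and lin-54, and all 8 were found among the 19973 protein-coding genes annotated on the nuclear chromosomes of Caenorhabditis elegans. The question put to the data was which of them had ChIP-seq peaks of the transcription factor ZIP-5 at their promoters. ChIP-seq (chromatin immunoprecipitation followed by sequencing) recovers DNA bound to a protein and reports as peaks the places where the reads pile up. The set was chosen on earlier results of these same peak lists, in which lin-35 stood out by its signal, so the height and place of its peak are given as a description and no test was made on any member.

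All data came from 1 group, hermaphrodite late embryos of strain OP544, genotype unc-119(tm4063) III with the transgene wgIs544, collected 4 hours after synchronization by bleaching. The transgene expresses ZIP-5, a basic leucine zipper (bZIP) factor, with a GFP-FLAG tag at its C-terminus, and per the labels' descriptions the precipitation used an antibody against GFP, although the labels' antibody field names zip-5. There were 2 biological replicates of this single transgenic strain, whole embryos of mixed cell types were used, and no library without the tag was analysed here. Values therefore cannot be told apart from signal that an immunoprecipitation without the tagged protein would give at the same place.

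LIN-35 is the only pocket protein of the worm and the counterpart of the mammalian retinoblastoma family. In DREAM it joins the E2F-DP dimer, here EFL-1 and DPL-1, to MuvB, a core of LIN-9, LIN-37, LIN-52, LIN-53 and LIN-54, in which LIN-54 contacts DNA. The complex is known for holding cell cycle genes silent and, in worms, for keeping germline genes off in somatic cells. Many of its genes were found as synthetic multivulva (synMuv) class B genes, because their loss together with a class A gene gives extra vulvae.

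Peaks were read from 4 lists the authors deposited in ce11 coordinates. The optimal set, which passed a threshold on the irreproducible discovery rate (a measure of how well peak ranks agree between replicates), held 746 peaks. The list called on both alignments together held 4380 entries, the replicate 1 list 6253 and the replicate 2 list 6945, and these 3 relaxed lists hold background as well as peaks. The signal of an entry is the authors' peak score without a stated scale, used here only to rank and describe entries within a list. No list gives read counts, so the depth is unknown. A gene was counted where a summit lay in its promoter window, which began 1000 bp ahead of the outermost annotated start and ended 200 bp past it. Because trans-splicing replaces the first bases of many worm transcripts, transcription can begin ahead of the annotated start.

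Of the 8 genes only lin-35 had an optimal peak in its window, 1 of 8, where 3.32% of all protein-coding genes had one. In the list called on both alignments lin-35, efl-1, lin-9 and lin-53 had an entry, 4 of 8, where the share of all genes was 10.8%. The replicate 1 list held an entry for 5 of the 8 (lin-35, dpl-1, lin-9, lin-53 and lin-54; 12.6% of all genes) and the replicate 2 list for 3 (lin-35, efl-1 and lin-53; 13.6% of all genes). Both replicate lists held an entry for 2 of the 8, lin-35 and lin-53, and for 7.36% of all genes. For lin-37 and lin-52 none of the 4 lists held an entry in the window. Since the set was picked with lin-35 known, the optimal count says nothing about the complex as a whole. Every other count above includes lin-35 as well, so these counts too are only a description.

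**Figure D1:**
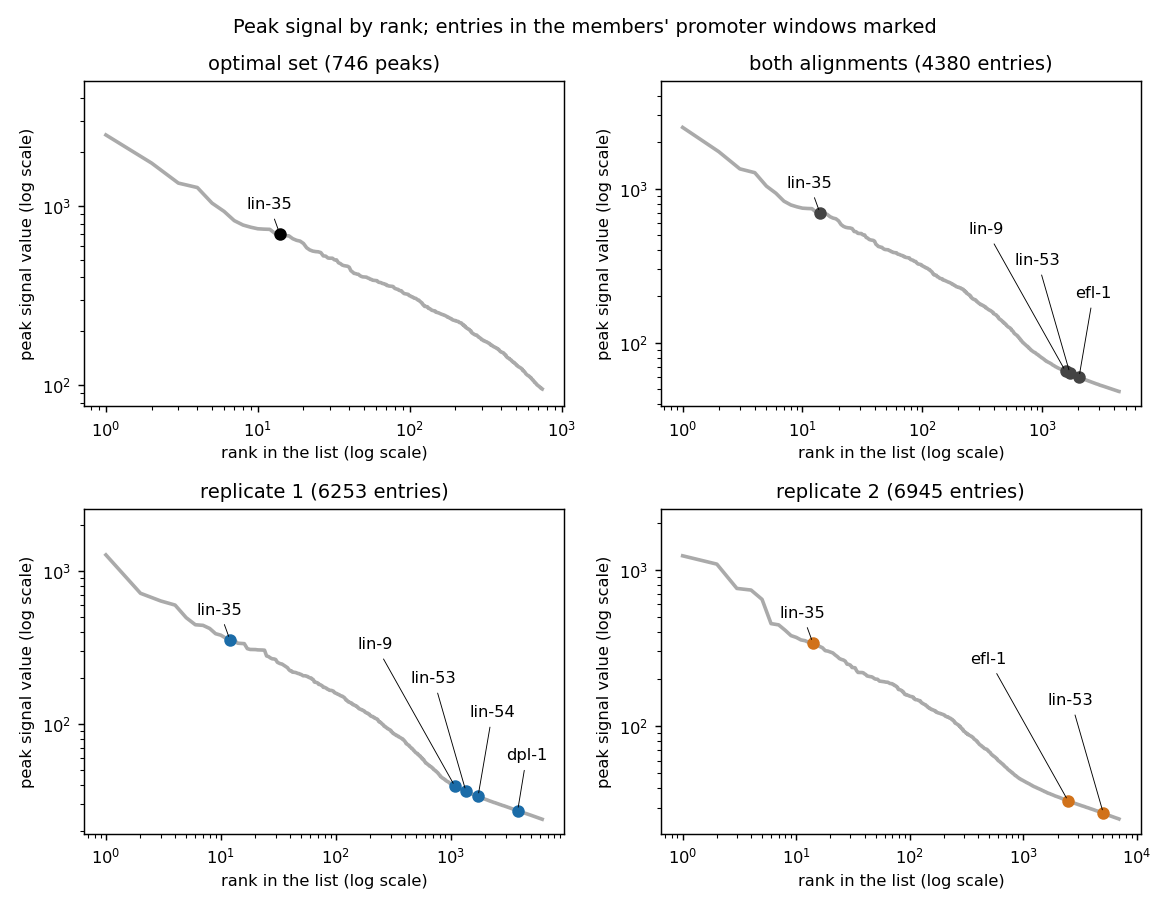
Peak signal value (y axis, log scale) against rank (x axis, log scale) in each of the 4 lists, with the entries in the promoter windows of the 8 genes as points. lin-35 sits at rank 12 to 14 in every list, while the other members with an entry lie at rank 1089 or lower.

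The pocket protein gene lin-35 (WBGene00003020) carried a strong peak in every list. Its optimal peak spanned 5807258 to 5807666 of chromosome I, ahead of the gene, which runs from 5807709 to 5815637 on the plus strand. The signal was 696.2 in the optimal set, 355.4 in replicate 1 and 340.6 in replicate 2. These values put it at rank 14 of 746 in the optimal set, 12 of 6253 in replicate 1 and 14 of 6945 in replicate 2, so both libraries ranked it almost alike. Without the mitochondrial peaks it was 9 of the 730 nuclear peaks, and it was also 9 among the 457 that lie in a promoter window. The signal was 4.32 times the median of the optimal set and 7.31 times that of its weakest peak. Across 745 optimal peaks with a match in both replicates the optimal signal was close to the sum of the replicate signals (median ratio 1.00), and for lin-35 the ratio was also 1.00. The replicate 1 to replicate 2 ratio was 1.04 for lin-35, within the middle 50% of those peaks (0.801 to 1.15), so neither library dominated.

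The lin-35 peak lay in a promoter shared with vps-51, which encodes a subunit of a vesicle tethering complex and is transcribed in the opposite direction. Only 417 bp separate the annotated starts of both genes. The summit lay at -265 bp from the lin-35 start and at -153 bp from the vps-51 start in the optimal set. It lay at -244 and -174 bp in replicate 1, and at -263 and -155 bp in replicate 2, so the summits of the replicates were 19 bp apart. All 4 summits were closer to vps-51, by 35 to 56 bp from the midpoint between the starts, and the optimal peak reached from -451 to -43 bp and so over the vps-51 start. When a summit was assigned to no gene but the one whose start was closest, this peak went to vps-51, and 0 of the 8 genes had an optimal summit, against 2.20% of all genes. Which of the genes, if either, the binding acts on was not tested. No other optimal or replicate 2 entry lay within 20000 bp of the lin-35 start. The closest other entry was 15017 bp downstream in replicate 1 and 14826 bp downstream in the list of both alignments.

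**Figure D2:**
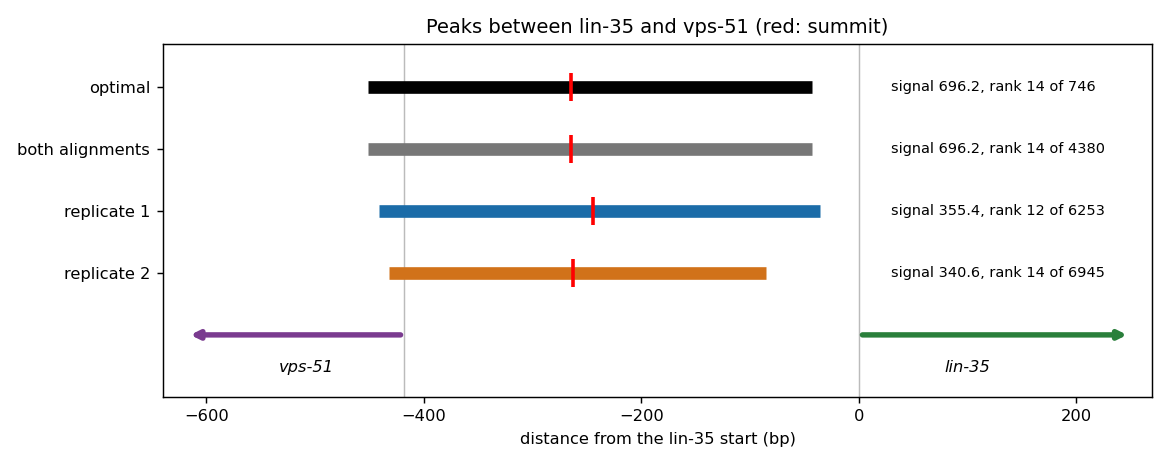
Extent of the peak between lin-35 and vps-51 in the 4 lists (bars) with its summit (red), by distance in bp from the lin-35 start (x axis). The summits fall at -265 to -244 bp, nearer to the vps-51 start at -418 bp than to that of lin-35.

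Of the promoter peaks with a signal nearest to that of lin-35, 3 above and 3 below, all 6 also ranked within the first 20 entries of each replicate list. Above it were those of Y50D4C.5 (762.7), of the pair jmjd-1.2 and F29B9.11 (744.1) and of W03H9.2 (742.3). Below it were those of C34C12.9 (683.4), of tag-267 with tag-266 (658.1) and of Y92H12BR.2 with Y92H12BR.3 (618.7). The likeness is in signal alone, over 2 libraries. In replicate 1 these peaks had ranks 7 to 18 and in replicate 2 ranks 9 to 19. Of the 6, 3 lay in windows of genes on both strands, as the lin-35 peak did. A summit in windows on both strands is therefore common to lin-35 and some, but not all, of its neighbours in signal.

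The other entries in the members' windows had far lower signals than the lin-35 peak, and none reached the optimal set. Their signals were 59.8 to 65.3 in the list called on both alignments, just above its median of 58.5, and 0.628 to 0.686 times that of the weakest optimal peak. In the replicate lists, whose lowest values are 24.0 and 25.5, they were 27.3 to 39.3 and 27.7 to 33.2. Within those lists they spread from the strongest 20% (lin-9 in replicate 1, above 82.6% of the list) to the lower part (lin-53 in replicate 2, above 27.2%). None of the 6 in the replicate lists overlapped an optimal peak. Many entries at such ranks are found in a single library. Of replicate 1 entries, 86.2% of the strongest 20% overlapped a replicate 2 entry, then 44.0%, 30.6%, 23.6% and 20.9% down the list. For replicate 2 the same shares were 82.2%, 35.9%, 26.1%, 20.7% and 18.4%.

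**Figure D3:**
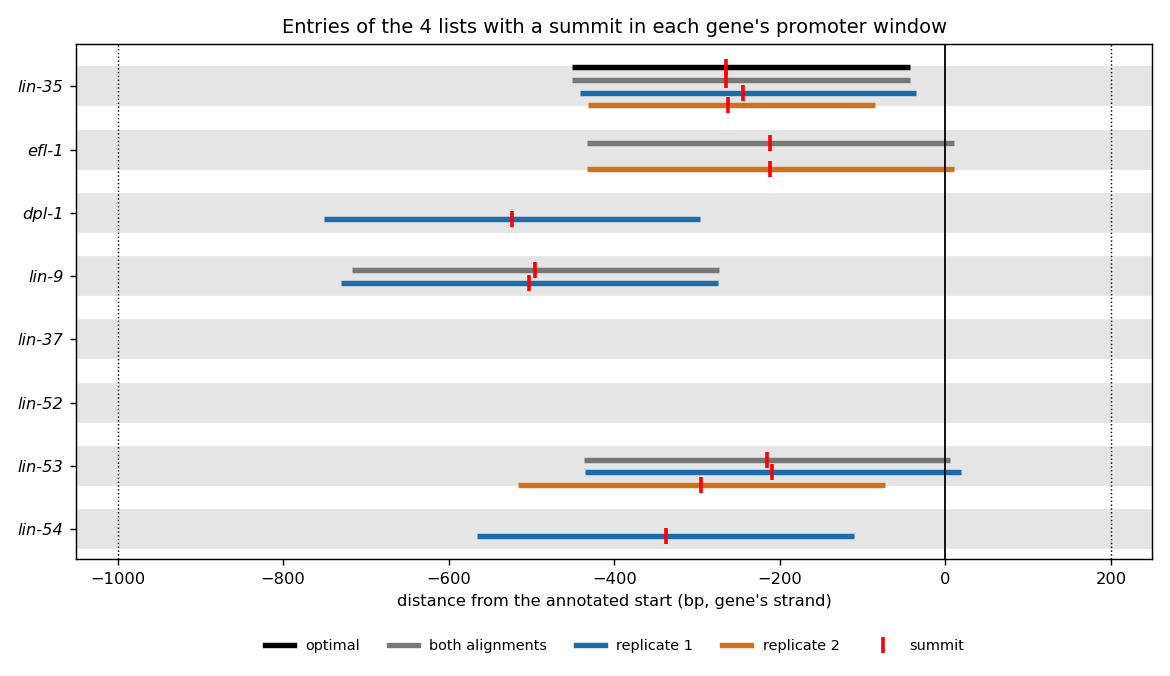
Entries of the 4 lists (coloured bars, red summit) with a summit in the promoter window of each gene, by distance from its annotated start in bp (x axis, dotted lines at the window's ends). lin-35 and lin-53 have entries in both replicates, efl-1, dpl-1, lin-9 and lin-54 in 1 replicate each, lin-37 and lin-52 in none.

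The E2F arm of the complex was represented in 1 library per gene. efl-1 (WBGene00001161, chromosome V, 16958590 to 16965675, minus strand) encodes the E2F protein that binds the DNA site together with DPL-1. Its entry had a signal of 33.2 in replicate 2 (rank 2479 of 6945) and 59.8 in the list of both alignments (rank 2032 of 4380), with the summit at -212 bp in both. That summit also lay in the window of fbxa-90, at -927 bp. The replicate 1 list had no entry there, and its nearest summit lay 6194 bp downstream of the start, inside efl-1. dpl-1 (WBGene00001061, chromosome II, 9169910 to 9172565, plus strand) encodes the DP partner. Its entry was in replicate 1 only, with a signal of 27.3 (rank 3824 of 6253) and the summit at -523 bp. dpl-1 overlaps the opposite-strand gene T23G7.2, inside which this summit lies.

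The MuvB gene lin-9 (WBGene00002998, chromosome III, 8900237 to 8904131, minus strand) had an entry of 39.3 in replicate 1 (rank 1089 of 6253, in the strongest 20%), with the summit at -503 bp. The list of both alignments gave 65.3 (rank 1569) with the summit at -496 bp. Replicate 2 had none in the window, although most entries of the strongest 20% of replicate 1 overlapped a replicate 2 entry. The summit also lay in the window of unc-32, a vacuolar ATPase subunit gene, at -981 bp. lin-54 (WBGene00003037, chromosome IV, 13241044 to 13243401, plus strand) encodes the DNA-binding MuvB protein. Its entry was in replicate 1 only, with 33.9 (rank 1729), at -338 bp from its own start but at -55 bp from that of rpl-12, a ribosomal protein gene on the other strand. The start of lin-54 was therefore the farther one.

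The sequences under the 4 members' entries on chromosomes II to V are shown because they let the words searched for be read in place. Each runs 5′ to 3′ on the strand of the named gene, from RefSeq's WBcel235 genome, the same coordinates as ce11. They span 100 bp on each side of the summit, and the lin-54 stretch is trimmed at the annotated start of rpl-12. Capitals mark an E2F site (any spelling, either strand) or a CHR element, the word that LIN-54 type proteins bind. The windows are chrV:16965787-16965987 for efl-1 (minus strand), chrIII:8904527-8904727 for lin-9 (minus strand), chrII:9169287-9169487 for dpl-1 (plus strand) and chrIV:13240652-13240806 for lin-54 (plus strand).
efl-1: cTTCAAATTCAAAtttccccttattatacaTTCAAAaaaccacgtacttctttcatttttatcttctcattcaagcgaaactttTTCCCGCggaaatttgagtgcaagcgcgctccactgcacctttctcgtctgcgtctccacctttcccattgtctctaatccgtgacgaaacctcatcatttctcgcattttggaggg
lin-9: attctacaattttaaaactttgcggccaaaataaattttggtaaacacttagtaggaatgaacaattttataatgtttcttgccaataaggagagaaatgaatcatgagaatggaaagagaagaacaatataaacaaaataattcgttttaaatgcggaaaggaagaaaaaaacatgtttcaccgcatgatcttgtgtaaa
dpl-1: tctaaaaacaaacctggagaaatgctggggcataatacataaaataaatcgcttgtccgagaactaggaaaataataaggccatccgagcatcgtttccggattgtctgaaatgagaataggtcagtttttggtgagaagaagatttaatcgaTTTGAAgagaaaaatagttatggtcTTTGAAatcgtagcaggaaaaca
lin-54: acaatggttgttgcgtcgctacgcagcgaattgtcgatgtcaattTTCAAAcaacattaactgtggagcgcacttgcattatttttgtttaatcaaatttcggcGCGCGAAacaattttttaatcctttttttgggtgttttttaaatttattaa

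Read in place, the efl-1 summit lay beside an E2F word, whose first base was 16 bp upstream of it, at -228 bp from the start. Upstream of that were 3 CHR words on the opposite strand. The lin-54 stretch held a CHR word 9 bp upstream of the summit and an E2F word on the opposite strand 50 bp downstream of it. A further E2F word, 81 bp upstream of the lin-54 summit, lay in the part trimmed from the printed stretch. The dpl-1 window held 2 CHR words, 53 and 78 bp downstream of the summit, and the lin-9 window held neither kind. Of the 3632 weaker nuclear entries of the list of both alignments, 48.9% had a CHR word within 100 bp and 10.9% an E2F word. Over 100 bp on each side of the summit, the GC content was 42.3% for efl-1 and 28.9% for lin-9, against a median of 37.8% for the 3632 weaker nuclear entries of the list of both alignments. It was 36.3% for dpl-1 and 38.8% for lin-54, whose entries were in the replicate 1 list alone.

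lin-53 (WBGene00003036, chromosome I, 9618196 to 9619760, minus strand) was the only member besides lin-35 with an entry in both replicates. It encodes the histone-binding MuvB subunit, a protein that also serves other chromatin complexes. Its signal was 36.5 in replicate 1 (rank 1357 of 6253), 27.7 in replicate 2 (rank 5059 of 6945) and 63.5 in the list of both alignments (rank 1706 of 4380). The summits lay at -209, -295 and -216 bp, so those of the replicates were farther apart than at lin-35, and the replicate 2 entry ranked among the weaker ones of its list. The window is shared with nra-2, transcribed the other way from a start 467 bp upstream, and the summits lay at -258, -172 and -251 bp from that start.

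The remaining MuvB genes were lin-37 (WBGene00003022, chromosome III, 7070890 to 7072552, minus strand) and lin-52 (WBGene00003035, chromosome III, 9824083 to 9824750, minus strand). Their gaps to the nearest upstream protein-coding gene that does not overlap the start, 60 and 126 bp, were the smallest among the 8. Nearest to the window's edge from outside was an entry 1136 bp upstream of lin-52, in replicate 2 (29.5) and in the list of both alignments (52.8), in the window of the next gene, ZK632.9. The farthest inside were those of dpl-1 at -523 bp and lin-9 at -503 bp. For lin-37 the nearest entries lay at the far end of its own gene body, 1554 bp downstream of the start in replicate 2 (30.3) and 1491 bp in the list of both alignments (54.6). The only other entries inside member genes were the 1 already named in efl-1 and 2 in lin-9, at 3890 bp in replicate 1 (28.2) and 574 bp in replicate 2 (26.6).

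Distances to the nearest summit set the members beside all genes without a window. In the optimal set the median distance of the 8 starts was 25002 bp, against 52273 bp over all protein-coding genes. They ranged from 265 bp (lin-35) to 218835 bp (efl-1). After lin-35 came lin-53, 6329 bp from a peak between hsr-9 and rps-19, then lin-37 at 15571 bp, lin-52 at 16415 bp, lin-9 at 33589 bp, lin-54 at 48505 bp and dpl-1 at 109372 bp. In the list of both alignments the member median was 816 bp against 9601 bp, in replicate 1 it was 513 against 6509 bp, and in replicate 2 it was 855 against 5826 bp. In each of these 3 lists 7 of the 8 were nearer than the all-gene median. The exception was dpl-1 in the list of both alignments (88285 bp) and in replicate 2 (15782 bp), and lin-37 in replicate 1 (15535 bp). In the optimal set 6 of the 8 were nearer than the all-gene median. Where a member had an entry in its window, its nearest summit was that entry. The distances therefore partly repeat the window counts, for genes chosen with earlier peak results known.

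**Figure D4:**
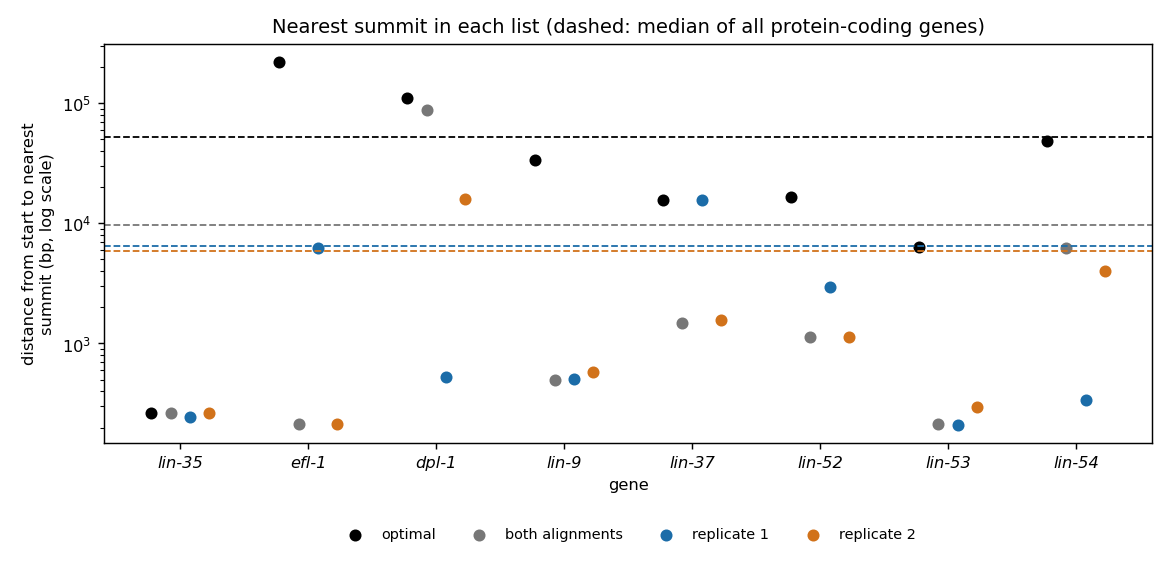
Distance from the start of each gene to the nearest summit (y axis, bp, log scale) in the 4 lists (colours), with the median over all protein-coding genes as a dashed line per list. lin-35 stays at 244 to 265 bp in all lists, while the optimal distances of the others run from 6329 to 218835 bp.

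The members with and without entries differed in the gene upstream of them. The nearest upstream protein-coding gene that does not overlap the start is transcribed in the opposite direction for lin-35, efl-1, dpl-1, lin-9, lin-53 and lin-54, the 6 that had an entry in some list. It is on the same strand, 60 bp away for lin-37 and 126 bp for lin-52, the 2 that had none. The divergent gene lay 392 to 466 bp away for lin-54, lin-35 and lin-53. For efl-1, lin-9 and dpl-1 it lay 1138, 1483 and 2079 bp away. The dpl-1 entry has its summit inside T23G7.2, which overlaps dpl-1 and so was not taken as its upstream gene. The share of all genes with an entry in any list is not given here. The split by upstream gene was noticed after the values were seen, as was its limit of 200 bp. Over all protein-coding genes, 5.36% of those with a divergent upstream neighbour had an optimal summit, against 1.95% of those with a same-strand neighbour within 200 bp and 1.57% of those with one farther away. In the list of both alignments the shares were 14.9%, 7.90% and 7.33%. Of all genes, 45.4% had the divergent layout. A summit between divergent genes can count for both, and how far this moves the share of that class was not tested.

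Words known from the factors of the complex and from bZIP proteins were searched on both strands. They were the E2F site, spelled TTCCCGC or TTGGCGC or TTCGCGC or TTGCCGC, and the CHR element, spelled TTTGAA or TTCGAA. The others were the C/EBP site TTGCGCAA, the cyclic AMP response element TGACGTCA, the GC box GGGCGG, the tRNA B box core GGGTTCGA and CTAGGCCA. The GC box and CTAGGCCA were picked from earlier results of these peaks. None of the words lies inside another. The lin-35 peak held none of these 11 words anywhere over its 409 bp, and neither did the replicate entries there. Of the 730 nuclear optimal summits, 51.4% had a CHR word within 100 bp, 13.8% an E2F word, 12.3% a GC box, 11.6% CTAGGCCA, 7.53% the B box core, 1.78% the C/EBP site and 0.548% the cyclic AMP response element. The GC content around the lin-35 summit was 35.3%, below the median of 41.8% for the optimal summits. A missing word says only that these letters do not occur there.

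In promoters, taken as the 250 bp before and the 50 bp after each start, an E2F word lay in 3 of the 8 (efl-1, lin-9 and lin-53), where 9.20% of the 19973 promoters of this length held one. A CHR word lay in 6 of the 8, all but lin-35 and lin-52, where the short word is common (68.9% of all promoters). The other 5 kinds of word lay in 0 of the 8, and in 0.340% to 7.83% of all promoters. The E2F word began at -228 bp in efl-1, -79 bp in lin-9 and -143 bp in lin-53. At lin-53 it fell 66 bp downstream of the replicate 1 summit, 73 bp downstream of that of both alignments and 152 bp downstream of that of replicate 2. At lin-9 it lay away from the entry, whose summit was at -503 bp.

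Genes that act with the complex or are regulated in the same pathway were read in the same windows, from 4 lists of 69 names, of which 67 matched. The lists were written with earlier results of these data known. Together 5 of the 67 genes had an optimal peak, where the share of all genes was 3.32%. In the list of both alignments 24 had an entry (35.8%, against 10.8% of all genes), in replicate 1 26 (38.8%, against 12.6%), in replicate 2 27 (40.3%, against 13.6%) and in both replicates 19 (28.4%, against 7.36%). Whether the genes of the lists share layouts that carry entries was not tested.

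**Figure D5:**
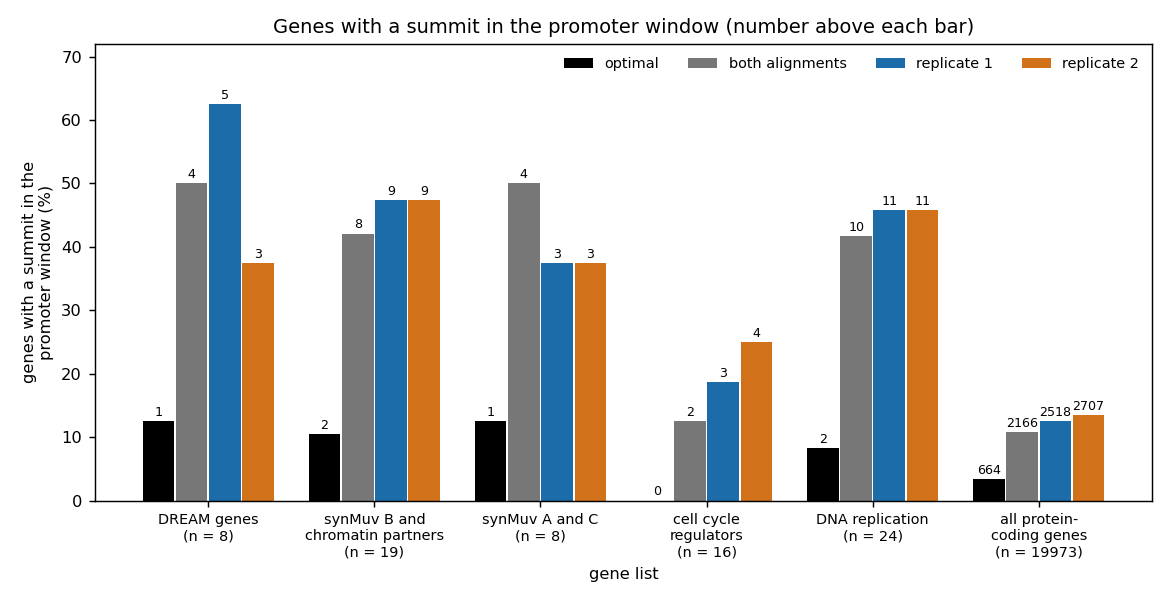
Share of genes with a summit in the promoter window (y axis, %) for the 8 DREAM genes, 4 further gene lists and all protein-coding genes, in the 4 peak lists (colours), with the number of genes above each bar. The optimal bars stand for 0 to 2 genes per list, and the relaxed lists mark 12.5% to 62.5% of a list's genes.

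Among synMuv B genes and chromatin partners 2 of 19 had an optimal peak (10.5%, beside 3.32% of all genes). chaf-2, a chromatin assembly factor subunit gene, had the strongest, with 830.4 in the optimal set, 421.5 in replicate 1 and 409.7 in replicate 2, and ranks of 7, 8 and 8. Its summit lay midway in a shared promoter, at -249 bp from chaf-2 and -250 bp from Y71G12B.30. lin-61, which encodes a protein that binds methylated histone tails, had 303.1, with 150.8 in replicate 1 and 150.9 in replicate 2, at -366 bp. That summit was nearer to bub-1, a mitotic checkpoint kinase gene, at -293 bp. In the list of both alignments 8 of 19 had an entry (42.1%, beside 10.8% of all genes). Of those without an optimal peak, hda-1, a histone deacetylase gene (87.3), and chaf-1 (79.7) had the highest signals. The hda-1 summit at -971 bp was nearer to ril-1 (-289 bp). rba-1, the neighbouring paralogue of lin-53, had none in any list, and most of all genes had none in each list taken alone.

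Of the 8 synMuv A and C genes 1 had an optimal peak (12.5%, beside 3.32% of all genes). It was that of mys-1, a histone acetyltransferase gene (243.8, with 104.6 in replicate 1 and 136.9 in replicate 2, at -295 bp). The mys-1 summit also lay in the window of VC5.2 at -999 bp. In the list of both alignments 4 of the 8 had an entry (50%, beside 10.8% of all genes). Of 16 cell cycle regulators 0 had an optimal peak, and the list of both alignments held an entry for 2 (12.5%), the cyclin E gene cye-1 (60.5) and cdk-2 (56.9), beside 10.8% of all genes. The cye-1 summit at -506 bp was nearer to pqn-21 (-142 bp). The replicate 1 list held an entry for 3 of the 16 (18.8%, beside 12.6% of all genes), cye-1, cdk-2 and the cyclin B gene cyb-3, and these 3 were also in replicate 2 (18.8% in both replicates, beside 7.36%). Replicate 2 added fzr-1 and so held 4 (25%, beside 13.6%). The cyb-3 entries, 24.3 in replicate 1 and 30.5 in replicate 2, had summits at -468 and -719 bp, nearer in both to T06E6.1 (-267 and -16 bp). The other E2F family genes, efl-2 and efl-3, and the cyclin D gene cyd-1 with its kinase gene cdk-4, had no entry in any list. Most of all genes also had none in each list taken alone.

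DNA replication genes, classic targets of E2F in mammals, had an optimal peak in 2 of 24 (8.33%, beside 3.32% of all genes). In the list of both alignments 10 had an entry (41.7%, beside 10.8%). The optimal peaks were those of psf-2, a gene of the GINS replication complex (230.3, with 116.4 in replicate 1 and 115.4 in replicate 2, at -220 bp), and of rpa-2, a gene of the single-strand binding complex (113.1, with 63.7 in replicate 1 and 50.4 in replicate 2, at -884 bp). The psf-2 summit also lay in the window of zipt-1 at -370 bp. Just below the optimal set, whose weakest peak had 95.2, were psf-1 (91.5), cdc-6 (89.3) and pcn-1 (84.7), which encode a GINS subunit, an origin licensing factor and the sliding clamp. The cdc-6 summit at -312 bp was nearer to acin-1 (-67 bp), and that of psf-1 at -114 bp also lay in the window of R53.4 (-510 bp). Each of these had an entry in both replicates, 41.1 and 46.5 for psf-1, 35.1 and 44.8 for cdc-6, and 40.3 and 42.7 for pcn-1. Their signals were above the 36.5 and 27.7 of lin-53 in both replicates, except for cdc-6 in replicate 1.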

How the data were processed

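Per the labels, the data are ChIP-seq of ZIP-5-eGFP from late embryos in 2 biological replicates of 1 group, and per the listings that accompany the deposited files, a list of peaks and background was called on each replicate's alignment with a control, a further list on both alignments together, and an optimal set was derived from these 3. The deposited signal of an entry is a peak score whose scale is not stated. Aligner, caller and thresholds: not given in the sources used here. Depth is unknown, and the ce10 lists were not used.

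Windows were built from the Ensembl 115 annotation of WBcel235, the build of the ce11 lists, and every entry ended inside its chromosomes. RefSeq gave the same start for all 8 genes. Summits were counted in windows, coordinates are 1-based, overlap meant at least 1 bp, and words were searched in summit windows of 201 bp and promoters of 300 bp. Nothing was tested. The names egr-1 and cdc-45L had no match. The rule for named genes took all members, pathway genes with an optimal peak, the 5 strongest others in the list of both alignments and 3 peaks on each side of lin-35. cye-1, cdk-2, cyb-3, fzr-1, rba-1, efl-2, efl-3, cyd-1, cdk-4 and genes sharing a summit were named after their values were seen. Members and lists were chosen with earlier results of these data known. Window assignment was checked on made-up genes. Python 3.11.15, pandas 2.3.3, numpy 2.4.6 and SciPy 1.17.1 were used.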

Additional observations from a re-analysis of the deposited data

How the results depend on the processing

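The count of members with an optimal summit stayed at 1, lin-35, with windows of 500 or 2000 bp upstream, with every annotated protein-coding transcript start, with any part of the peak in the window, in the stronger 50% of the set, and in the 746 strongest entries of either replicate alone. It became 0 when a summit counted only for the gene with the nearest start, since that gene is vps-51. The count in the list of both alignments, 4, was 3 to 5 under its alternatives: lin-52 joined with 2000 bp upstream or with any part of the peak, and lin-35 dropped out with the nearest start. The full list of replicate 2 alone gave 3 and that of replicate 1 alone 5, an alternative chosen once the data had been seen, with lin-35 and lin-53 in both. The lin-35 peak exceeded 98.1% of the optimal set, and 98.1% to 98.4% of as many entries of either replicate. These shares restate the signal that made lin-35 stand out when the set was chosen. Its place in the stronger 50% and among the 746 strongest entries followed from that choice as well, so these settings could not have removed it. With unknown depth, the absence of an entry does not show that binding was absent.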
